A study of Mus musculus with 24 samples.

Results

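The genes described here encode transcription factors that give hepatocytes their identity: Hnf4a, Onecut1 (HNF6), Foxa1, Foxa2, Foxa3, Cebpa, Cebpb, Prox1 and Nr1i3 (CAR). They were chosen by name. A gene was measured where the array had a probe set annotated to that symbol alone, and 8 of the 9 listed genes, of 18820 genes measured in all, met this rule with 1 probe set each. Nr1i3 (mouse build GRCm38.p6, chr1:171213934-171218845) shared its probe set with a neighbouring gene and was given no value.

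The study profiled 24 arrays of mice labelled male and aged 8 weeks, 3 arrays for each of 8 groups. Primary hepatocytes and whole liver were each taken from double knockout mice lacking NEMO and KEAP1 in hepatocytes, from NEMO knockout mice, from KEAP1 knockout mice and from NEMOf/f controls, which carry the floxed NEMO allele without deletion. In the knockouts an Alfp-Cre transgene, driven by albumin and alpha-fetoprotein regulatory elements, removed the floxed genes. Those elements are also active in cells of the fetal liver from which bile duct cells arise. The hepatocytes were isolated by collagenase perfusion and kept in culture overnight, so a hepatocyte value describes plated cells. The labels do not say which arrays came from the same animal. The design addresses how loss of KEAP1, which frees the antioxidant factor NRF2, alters livers whose hepatocytes lack NEMO, the regulatory subunit needed for NF-kB activation. All values are log2 RMA signals, so a difference of 1 is a 2-fold difference in signal, and 3 arrays a group limit the precision.

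Hepatocyte identity is held by factors that bind each other's genes and many enhancers together. HNF4A is a nuclear receptor required for lipoprotein, bile acid and clotting factor genes. FOXA1, FOXA2 and FOXA3 are forkhead factors that open chromatin at liver enhancers. ONECUT1 is needed for bile duct formation in the embryo and regulates liver metabolism. C/EBPα drives the metabolic programme and restrains division, C/EBPβ rises in the acute phase and in regeneration, and PROX1 is a homeobox factor that the embryonic liver needs to grow, binds HNF4A as a corepressor and also marks lymphatic endothelium.

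The promoters of the 3 genes called lower in double knockout hepatocytes are printed first, with 1 Foxa2 promoter that holds a match to the ONECUT motif. Each is the 250 bases before the annotated start in RefSeq GRCm38.p6, written 5′ to 3′ on the gene's strand. Capitals mark a motif match.
Onecut1, chr9:74861671-74861920, plus strand: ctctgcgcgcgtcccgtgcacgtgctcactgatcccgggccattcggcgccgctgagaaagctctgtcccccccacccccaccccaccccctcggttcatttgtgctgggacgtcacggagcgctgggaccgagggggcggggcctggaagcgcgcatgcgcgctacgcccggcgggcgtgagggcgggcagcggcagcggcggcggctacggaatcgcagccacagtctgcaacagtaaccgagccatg
Foxa3, chr7:19023540-19023789, minus strand: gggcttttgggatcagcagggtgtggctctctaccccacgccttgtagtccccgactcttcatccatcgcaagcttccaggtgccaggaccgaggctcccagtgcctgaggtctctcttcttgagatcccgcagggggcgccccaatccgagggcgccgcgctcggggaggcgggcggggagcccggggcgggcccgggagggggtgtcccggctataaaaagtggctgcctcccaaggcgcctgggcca
Cebpa, chr7:35119043-35119292, plus strand: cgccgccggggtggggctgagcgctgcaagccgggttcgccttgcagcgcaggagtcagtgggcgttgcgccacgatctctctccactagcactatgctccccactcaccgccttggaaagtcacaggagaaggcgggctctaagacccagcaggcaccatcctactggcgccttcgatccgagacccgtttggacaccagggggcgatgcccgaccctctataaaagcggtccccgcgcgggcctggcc
Foxa2, start site 3, chr2:148046970-148047219, minus strand: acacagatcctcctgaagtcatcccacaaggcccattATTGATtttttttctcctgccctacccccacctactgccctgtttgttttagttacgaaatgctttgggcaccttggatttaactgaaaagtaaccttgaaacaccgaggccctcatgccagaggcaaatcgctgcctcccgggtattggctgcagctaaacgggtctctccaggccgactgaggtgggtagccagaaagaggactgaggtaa
On both strands of 12 promoters of the 8 genes, 6 motifs were searched, and their shares among 32851 mouse promoters were counted. These were ATCAAT for ONECUT factors (6.72% of promoters), TGTTTAC for FOXA factors (3.17%), TTGCNNCAA for C/EBP factors (1.74%), CAAAGTCCA for HNF4 (0.38%), TGACNNNGC for the NRF2 response element core (10.16%) and the NF-kB motif (1.41%). The letters were found in 3 promoters. Foxa2 held ATTGAT, the ONECUT letters on the other strand, at -213 to -208 from start site 3. Hnf4a held ATCAAT at -59 to -54 from start site 1, and Foxa1 held GTAAACA, the FOXA letters on the other strand, at -141 to -135. None of the 6 motifs was written in the Onecut1, Foxa3 or Cebpa windows, which says only that these letters are not in these 250 bases.

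Of the 24 arrays, 4 stood apart from their labels or groups. Liver control 3 had an Nqo1 signal, a target of NRF2, of 9.17, against 9.25 to 9.36 in double knockout livers and far above liver controls 1 and 2, and its Ikbkg (NEMO) signal was 6.40, against 6.86 and 6.81 in the other control livers. Liver double knockout 3 carried fat cell and duct transcripts, with Adipoq at 7.17 and Krt7 at 7.81. Hepatocyte double knockout 3 and hepatocyte control 1 had Xist signals of 9.76 and 9.65 in a study labelled male, against 2.00 to 2.98 on the other 22 arrays. Their signals of the Y-linked gene Eif2s3y were 2.71 and 2.51, against 6.74 to 7.82 on the other 22. Both arrays thus read as female, and sex was mixed within the double knockout and control hepatocyte groups. These 4 arrays are drawn as open symbols, and the counts of calls are given with and without them. The albumin transcript Alb was between 13.13 and 13.37 on all 24 arrays. In primary hepatocytes Ikbkg was 6.01 to 6.29 in double knockouts and 6.26 to 6.60 in NEMO knockouts, against 6.63 to 6.69 in controls. In whole liver it was 6.18 to 6.47 in double and 6.14 to 6.26 in NEMO knockouts. Keap1 was 5.62 to 5.87 in double and 5.73 to 5.91 in KEAP1 knockout hepatocytes, against 5.90 to 6.32 in controls, and 5.75 to 5.93 in double and 5.38 to 5.76 in KEAP1 knockout livers, against 5.88 to 6.35 in controls.

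**Figure D1:**
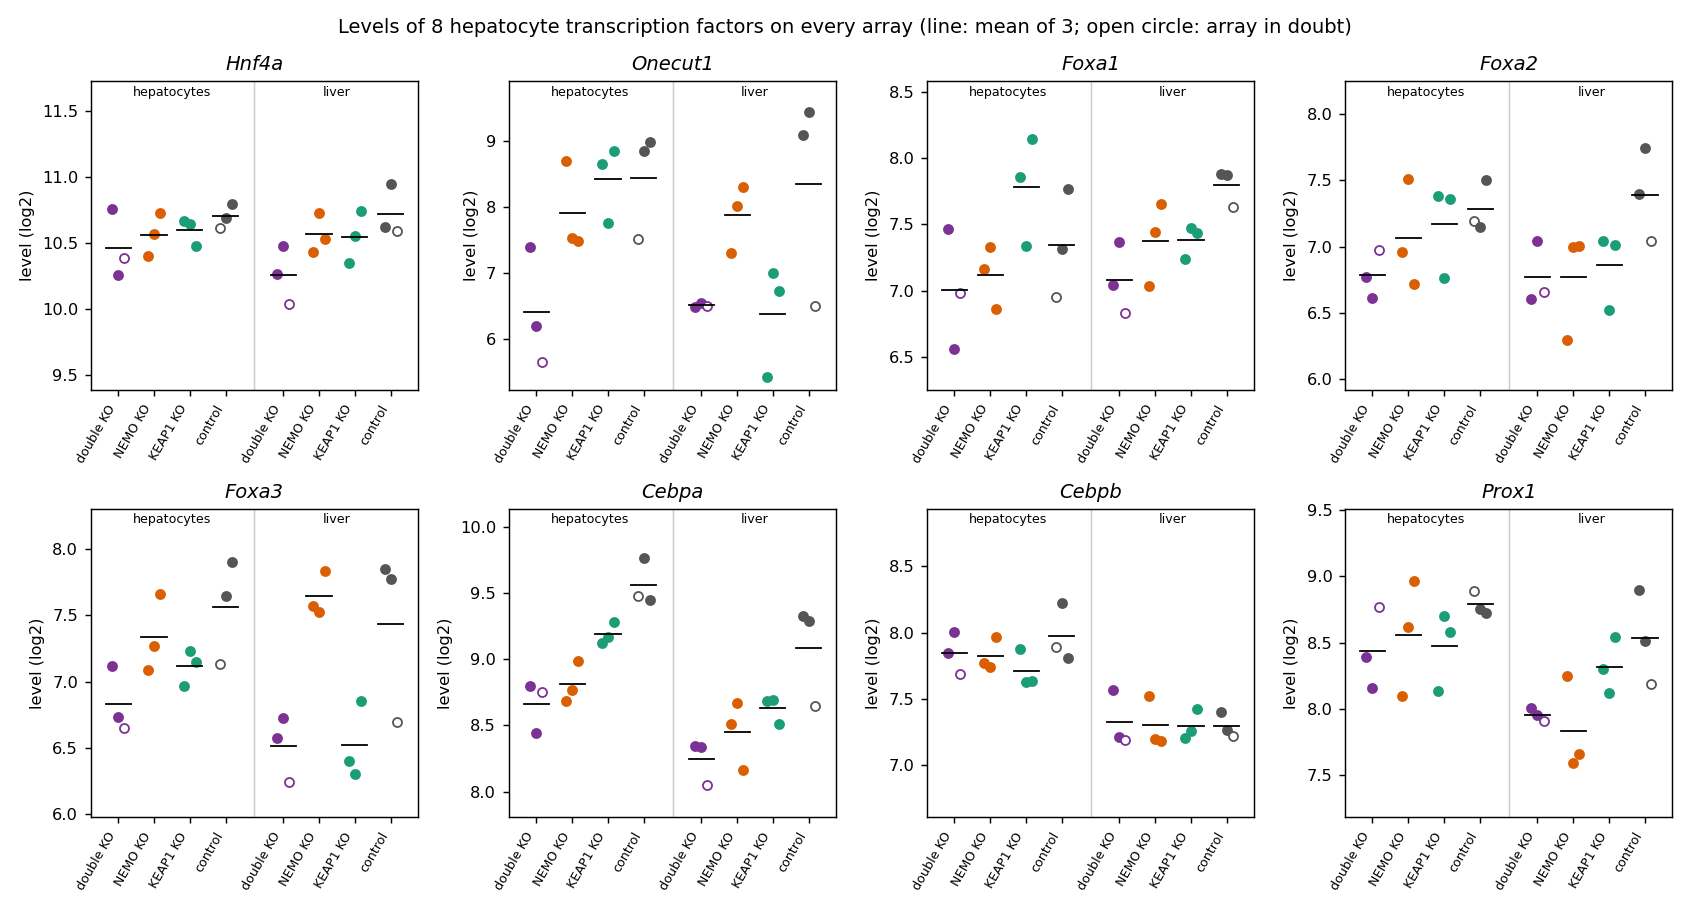
The log2 signal of the 8 factors on each of 24 arrays, by group, with primary hepatocytes on the left of each panel and whole liver on the right. Points are arrays, bars are group means, and open circles are the 4 arrays in doubt. Hnf4a stays between 10.04 and 10.95 on all arrays, while Onecut1 runs between 5.44 and 9.45.

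In double knockout hepatocytes 3 of the 8 factors fell against control, Onecut1, Cebpa and Foxa3, where 2.99% of all genes were called lower (limma, Benjamini-Hochberg adjusted p under 0.05 over 18820 genes). In NEMO knockout hepatocytes 1 factor fell, Cebpa, beside 2.05% of all genes. In KEAP1 knockout hepatocytes limma called 0 of 8, beside 0.425% of all genes, and 2 reached an unadjusted p under 0.05, as did 13.6% of all genes. No factor was called higher in any of the 3 knockouts. The same 3, 1 and 0 factors were called without the arrays in doubt, where 2.79%, 1.45% and 0.473% of all genes were called lower in double, NEMO and KEAP1 knockouts. The median change of the 8 factors in double knockouts was -0.42, beside -0.03 over all genes. Of the 8 factors, 4 lay below all 3 control arrays on every double knockout array (Cebpa, Foxa2, Foxa3 and Onecut1), as did 12.5% of all genes.

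In double knockout livers limma called 0 of 8 factors with all arrays, beside 0.00531% of all genes called lower, and 7 of 8 had an unadjusted p under 0.05, beside 20.7% of all genes. Deviations from the group mean correlated weakly between same-numbered arrays of these livers and their controls, at 0.115, 0.136 and 0.23. The highest was for arrays 3, both in doubt. With the replicate number as a block over all 12 liver arrays, 2 factors were called lower, beside 1.48% of all genes. These were Cebpa (limma adjusted p = 0.0127) and Foxa1 (adjusted p = 0.0353). Without the arrays in doubt 4 factors were called lower, Cebpa, Foxa1, Foxa3 and Onecut1, beside 2.84% of all genes. In NEMO knockout livers limma called 0 of 8 with all arrays, beside 0.319% of all genes called lower, and 4 of 8 had an unadjusted p under 0.05, beside 18.0% of all genes. With the arrays in doubt left out, Cebpa, Foxa2, Onecut1 and Prox1 were called lower, 4 of 8 beside 3.55% of all genes. In KEAP1 knockout livers limma called 0 of 8 with all arrays and 0% of all genes lower, and 5 of 8 had an unadjusted p under 0.05, beside 7.69% of all genes. Once the arrays in doubt were left out, Cebpa, Foxa3 and Onecut1 were called lower, 3 of 8 beside 1.55% of all genes. These 3 liver comparisons share the same control arrays, as the 3 hepatocyte comparisons share theirs. In bulk samples, fewer cells of a type and less RNA per cell cannot be told apart.

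**Figure D2:**
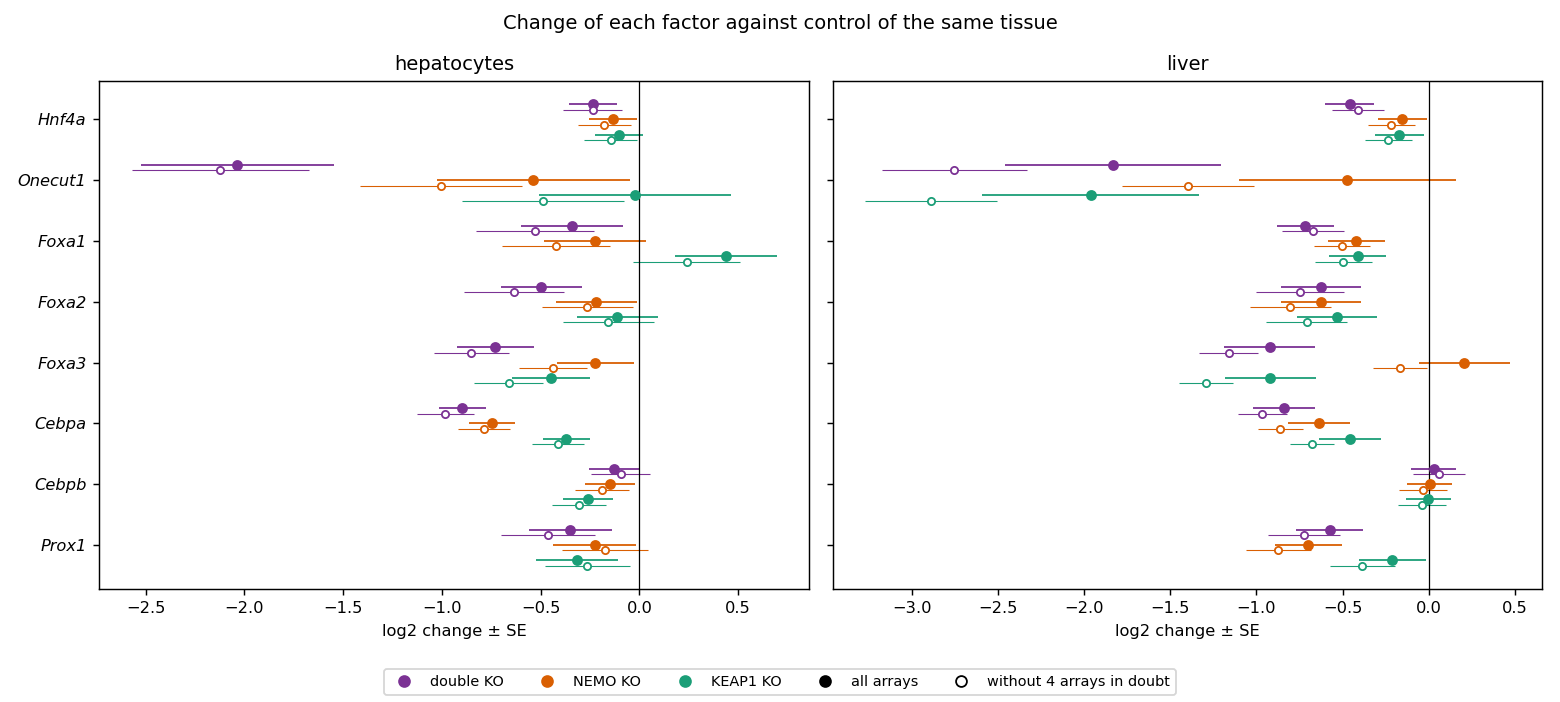
The log2 change of each factor against control (point) with its SE (line), in double, NEMO and KEAP1 knockouts, for primary hepatocytes on the left and whole liver on the right. Filled points are all arrays and open points leave out the 4 arrays in doubt. In double knockout hepatocytes the Onecut1 change is -2.04 and the Cebpa change -0.90, and the Onecut1 change in double knockout livers is -1.83 with all arrays and -2.75 without those in doubt.

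Markers of other liver cells moved with genotype in the plated hepatocytes. All 8 macrophage markers were called higher in double and in NEMO knockout hepatocytes, and 2 of 8 in KEAP1 knockouts. Their summed log2 level was 11.24 to 11.69 in double, 10.78 to 11.27 in NEMO and 9.77 to 10.53 in KEAP1 knockouts, against 8.80 to 9.96 in controls. Of 10 stellate cell markers, 8, 9 and 2 were called higher in double, NEMO and KEAP1 knockouts, with summed levels of 10.24 to 10.36, 10.67 to 10.94 and 9.26 to 9.45, against 8.14 to 8.85 in controls. Of 8 endothelial markers, 7, 6 and 6 were called higher, with summed levels of 10.64 to 10.80, 10.38 to 10.71 and 9.90 to 10.43, against 8.44 to 9.37 in controls. Over all genes 6.73%, 4.61% and 1.45% were called higher in double, NEMO and KEAP1 knockout hepatocytes. On the arrays not in doubt the counts in double, NEMO and KEAP1 knockouts were 8, 8 and 0 for macrophage and 8, 8 and 2 for stellate cell markers. For endothelial markers they were 7, 6 and 5, and over all genes 6.44%, 4.14% and 1.34% were called higher. Desmin (Des) was below 4 in double knockout, KEAP1 knockout and control hepatocytes, and Krt19, Krt7, Epcam and Cftr, which mark bile duct cells, were below 4 in every hepatocyte group. Of 6 neutrophil, 7 adipocyte and 4 pancreas markers 1 each was called higher in double knockouts and none in single knockouts, none of 7 lymphocyte markers was called, and 1 of 6 bile duct markers was lower in NEMO knockouts. These shifts accompany each hepatocyte result below, and their part in those results was not tested. In whole liver the stellate sums were 11.55 to 12.51 in double, 11.90 to 12.28 in NEMO and 10.96 to 11.36 in KEAP1 knockouts, against 10.55 to 11.58 in controls, and the macrophage sums were 11.32 to 11.58, 11.26 to 11.30 and 10.66 to 11.33, against 10.52 to 11.43. Control 3 gave the upper end of both control ranges. With the arrays in doubt left out, control livers had stellate sums of 10.55 to 10.89 and macrophage sums of 10.52 to 10.58, below every knockout liver. On those arrays 5, 8 and 4 of 10 stellate, 6, 6 and 1 of 8 macrophage and 5, 1 and 4 of 8 endothelial markers were called higher in double, NEMO and KEAP1 knockout livers, where 6.37%, 8.48% and 3.71% of all genes were called higher. These liver shifts accompany the liver results on the same arrays, and their part in them was not tested. The summed level of 20 hepatocyte product genes was 16.17 to 16.63 over all groups, a sum in which the brightest transcripts weigh most. By gene, 19 of the 20 lay below 0 in double knockout livers with all arrays, as did 55.9% of all genes. The median change of the 20 was -0.21, beside -0.04 over all genes, and limma called none.

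**Figure D3:**
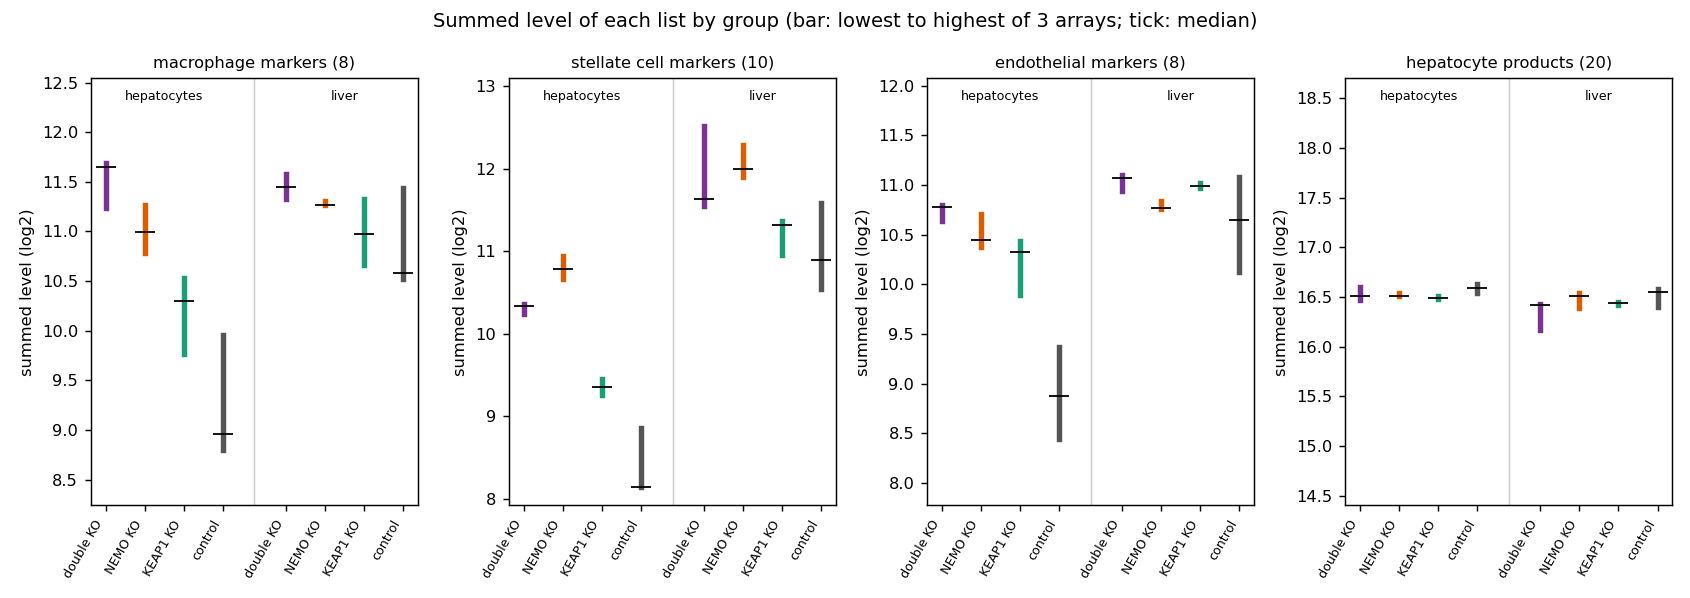
Summed log2 level of the macrophage, stellate cell and endothelial marker lists and of hepatocyte products, by group. A bar runs from the lowest to the highest of the 3 arrays and its tick is the median. The macrophage sums of double knockout hepatocytes lie at 11.24 to 11.69, above the 8.80 to 9.96 of control hepatocytes, and the hepatocyte product sums, which the brightest transcripts set, run between 16.17 and 16.63.

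Hnf4a (chr2:163506811-163572907), which encodes a nuclear receptor, had the highest signal of the 8 and the smallest span of group means, 0.46, close to the median gene's 0.45. In primary hepatocytes it was 10.76, 10.26 and 10.38 in double knockouts, 10.40, 10.56 and 10.73 in NEMO knockouts and 10.67, 10.64 and 10.48 in KEAP1 knockouts, against 10.61, 10.69 and 10.80 in controls. Knockout and control arrays overlapped in each of these comparisons. In whole liver it was 10.26, 10.48 and 10.04 in double knockouts, 10.43, 10.73 and 10.53 in NEMO knockouts and 10.35, 10.55 and 10.74 in KEAP1 knockouts, against 10.62, 10.95 and 10.59 in controls. All 3 double knockout livers lay below all 3 control livers, as did 11.6% of all genes. The change was -0.46 ± 0.14 (SE, limma adjusted p = 0.142, n = 3 each) in double knockout livers and -0.24 ± 0.12 (adjusted p = 0.282) in double knockout hepatocytes, and neither was called. Without double knockout array 1 the hepatocyte change was -0.38 and was called (adjusted p = 0.0488). Its 8 group means, from 10.26 in double knockout liver to 10.72 in control liver, had no neighbouring pair further apart than both groups' SDs.

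Onecut1 (chr9:74861921-74889648) varied most of the 8, with group means 2.06 apart. In primary hepatocytes it was 7.40, 6.20 and 5.65 in double knockouts, 8.71, 7.54 and 7.49 in NEMO knockouts and 8.66, 7.77 and 8.86 in KEAP1 knockouts, against 7.52, 8.85 and 8.99 in controls. The double knockout arrays were all below every other hepatocyte array, and single knockouts overlapped controls. Over all genes 12.5% lay below every control array in double knockout hepatocytes. Onecut1 averaged 6.42 ± 0.89 in double knockouts and 8.45 ± 0.81 in controls (SD, n = 3 each), a change of -2.04 ± 0.49 or 0.244 times the control signal (limma adjusted p = 0.0172). The call was kept on leaving out 2 of the 6 arrays in turn and lost without double knockout 2 (adjusted p = 0.0755), double knockout 3 (0.0589), control 2 (0.0683) or control 3 (0.0675). The change was -2.12 ± 0.45 (adjusted p = 0.0106) without the arrays in doubt. The change was -0.54 ± 0.49 in NEMO knockouts (adjusted p = 0.61) and -0.02 ± 0.49 in KEAP1 knockouts, where the 95% confidence interval ran between -1.08 and 1.03. Control 1, an array in doubt, was the lowest control. Leaving out the arrays in doubt, every NEMO knockout array lay below the remaining controls while KEAP1 knockouts still overlapped them. Over all genes, 32.7% stood wholly below or wholly above the controls in that NEMO comparison. The NEMO and KEAP1 changes were then -1.004 ± 0.41 (adjusted p = 0.223) and -0.49 ± 0.41 (adjusted p = 0.697).

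In whole liver Onecut1 was 6.50, 6.55 and 6.51 in double knockouts, 7.31, 8.02 and 8.30 in NEMO knockouts and 5.44, 7.001 and 6.73 in KEAP1 knockouts, against 9.10, 9.45 and 6.50 in controls. The third control, an array in doubt, lay level with the double knockouts, and controls 1 and 2 lay above all knockouts. Without the arrays in doubt, 29.1%, 22.8% and 18.9% of all genes lay below the controls in double, NEMO and KEAP1 knockout livers. With all arrays the changes were -1.83 ± 0.63 in double (limma adjusted p = 0.154), -0.47 ± 0.63 in NEMO (adjusted p = 0.731) and -1.96 ± 0.63 in KEAP1 knockouts (adjusted p = 0.617). On the arrays not in doubt they were -2.75 ± 0.42 (adjusted p = 0.00212), -1.40 ± 0.38 (adjusted p = 0.035) and -2.89 ± 0.38 (adjusted p = 0.00132), for double, NEMO and KEAP1 knockouts in that order. Without liver control 3 alone, the Onecut1 changes were -2.76, -1.40 and -2.89 (adjusted p = 0.00135, 0.0496 and 0.00194), and 6, 3 and 3 of the 8 factors were called lower in double, NEMO and KEAP1 knockout livers, beside 4.42%, 2.11% and 0.808% of all genes. In the order of the 8 group means, 1 gap exceeded both SDs, the 1.36 between NEMO knockout liver at 7.88 ± 0.51 and double knockout liver at 6.52 ± 0.03.

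Foxa3 (chr7:19013283-19023539) fell in double knockout hepatocytes. It was 7.11, 6.74 and 6.65 in double knockouts, 7.09, 7.27 and 7.66 in NEMO knockouts and 6.97, 7.23 and 7.15 in KEAP1 knockouts, against 7.13, 7.65 and 7.90 in controls. The highest double knockout array lay just under the lowest control. The change was -0.73 ± 0.20 (limma adjusted p = 0.0324), and -0.85 ± 0.19 (adjusted p = 0.0137) without the arrays in doubt. Leaving out single arrays kept the call in 2 of 6 cases and lost it without double knockout 2 (adjusted p = 0.121), double knockout 3 (0.0924), control 2 (0.0975) or control 3 (0.119), and a fit of the 2 groups alone gave an adjusted p of 0.0864. In KEAP1 knockout hepatocytes the change was -0.45 ± 0.20 (adjusted p = 0.333).

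In whole liver Foxa3 was 6.58, 6.72 and 6.24 in double knockouts, 7.57, 7.53 and 7.83 in NEMO knockouts and 6.40, 6.30 and 6.85 in KEAP1 knockouts, against 7.85, 7.77 and 6.69 in controls. Double and KEAP1 knockout livers lay below controls 1 and 2, and NEMO knockout livers stood near the level of those controls. Without the arrays in doubt, 29.1% and 18.9% of all genes lay below the controls in double and KEAP1 knockout livers. Changes against control were -0.92 ± 0.27 in double (limma adjusted p = 0.137), 0.21 ± 0.27 in NEMO (adjusted p = 0.72) and -0.92 ± 0.27 in KEAP1 knockouts (adjusted p = 0.617). Without the arrays in doubt the changes were -1.16 ± 0.17 in double (adjusted p = 0.00166), -0.17 ± 0.16 in NEMO (adjusted p = 0.53) and -1.29 ± 0.16 in KEAP1 knockouts (adjusted p = 0.000647). The NEMO change turned sign and was called in neither fit.

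Foxa1 (chr12:57540628-57548029) was 7.47, 6.56 and 6.98 in double knockout hepatocytes, 7.16, 7.33 and 6.86 in NEMO knockouts and 7.86, 7.34 and 8.14 in KEAP1 knockouts, against 6.95, 7.32 and 7.77 in controls, and no change was called there. In whole liver it was 7.04, 7.37 and 6.83 in double knockouts, 7.03, 7.44 and 7.65 in NEMO knockouts and 7.24, 7.47 and 7.43 in KEAP1 knockouts, against 7.88, 7.88 and 7.63 in controls. Every double and KEAP1 knockout liver lay below every control liver, as did 11.6% and 6.5% of all genes in these 2 comparisons. The change in double knockout livers was -0.72 ± 0.17 (limma adjusted p = 0.134, and 0.0353 with the replicate block), and -0.67 ± 0.18 (adjusted p = 0.0369) without the arrays in doubt.

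Foxa2 (chr2:148042877-148046969) was 6.77, 6.61 and 6.97 in double knockout hepatocytes, 6.96, 7.51 and 6.72 in NEMO knockouts and 7.38, 6.76 and 7.36 in KEAP1 knockouts, against 7.19, 7.15 and 7.50 in controls. In whole liver it was 6.60, 7.04 and 6.66 in double knockouts, 6.30, 6.999 and 7.01 in NEMO knockouts and 7.04, 6.52 and 7.01 in KEAP1 knockouts, against 7.40, 7.74 and 7.04 in controls. Double knockout arrays lay below controls in hepatocytes, as did 12.5% of all genes. In liver the highest double knockout, at 7.04, came level with the lowest control. Every NEMO knockout liver lay below every control liver, the highest only just, as did 11.5% of all genes. The change was -0.50 ± 0.21 in double knockout hepatocytes (limma adjusted p = 0.166). In liver it was -0.63 ± 0.23 in double (adjusted p = 0.17), -0.63 ± 0.23 in NEMO (adjusted p = 0.189) and -0.53 ± 0.23 in KEAP1 knockouts (adjusted p = 0.643). Without the arrays in doubt the NEMO change in liver was -0.80 ± 0.23 (limma adjusted p = 0.0445). The double and KEAP1 changes there were -0.75 ± 0.26 (adjusted p = 0.0923) and -0.71 ± 0.23 (adjusted p = 0.107), which were not called. Neither Foxa1 nor Foxa2 had neighbouring group means further apart than both SDs.

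Cebpa (chr7:35119293-35121928) fell in double and in NEMO knockout hepatocytes. In primary hepatocytes it was 8.80, 8.44 and 8.75 in double knockouts, 8.69, 8.77 and 8.99 in NEMO knockouts and 9.12, 9.17 and 9.29 in KEAP1 knockouts, against 9.48, 9.76 and 9.44 in controls. All 9 knockout arrays lay below all 3 controls, and KEAP1 knockouts lay above the other knockouts. Over all genes 12.5%, 11.8% and 9.2% lay below every control array in double, NEMO and KEAP1 knockout hepatocytes. The change was -0.90 ± 0.12 in double knockouts (limma adjusted p = 0.000301) and -0.75 ± 0.12 in NEMO knockouts (adjusted p = 0.00181), and both calls were kept on leaving out each of 6 arrays in turn. It was -0.37 ± 0.12 in KEAP1 knockouts (adjusted p = 0.154), which was not called, although control and KEAP1 hepatocytes were the 1 neighbouring pair of its 8 group means further apart than both SDs. Without the arrays in doubt the double and NEMO changes were -0.98 ± 0.15 (adjusted p = 0.00112) and -0.79 ± 0.13 (adjusted p = 0.00418).

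In whole liver Cebpa was 8.35, 8.34 and 8.05 in double knockouts, 8.51, 8.67 and 8.16 in NEMO knockouts and 8.69, 8.70 and 8.51 in KEAP1 knockouts, against 9.33, 9.29 and 8.64 in controls. The double knockouts lay below every control, as did 11.6% of all genes, and controls 1 and 2 lay above every knockout. Without the arrays in doubt, 29.1%, 22.8% and 18.9% of all genes lay below the controls in double, NEMO and KEAP1 knockout livers. With all arrays the changes were -0.84 ± 0.18 in double (limma adjusted p = 0.134), -0.64 ± 0.18 in NEMO (adjusted p = 0.0965) and -0.46 ± 0.18 in KEAP1 knockouts (adjusted p = 0.627). On the arrays not in doubt they were -0.97 ± 0.14 (adjusted p = 0.00166), -0.86 ± 0.13 (adjusted p = 0.00146) and -0.68 ± 0.13 (adjusted p = 0.0112). In double knockout livers the Cebpa call with all arrays was made with the replicate block (adjusted p = 0.0127).

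Cebpb (chr2:167688915-167690432) was called in no knockout of either tissue. In primary hepatocytes it was 7.84, 8.00 and 7.69 in double knockouts, 7.77, 7.74 and 7.97 in NEMO knockouts and 7.88, 7.63 and 7.63 in KEAP1 knockouts, against 7.89, 8.22 and 7.81 in controls. In whole liver it was 7.57, 7.21 and 7.19 in double knockouts, 7.52, 7.20 and 7.18 in NEMO knockouts and 7.20, 7.26 and 7.42 in KEAP1 knockouts, against 7.40, 7.26 and 7.22 in controls. Genotypes overlapped in both tissues, and every hepatocyte array exceeded every liver array. Within single genotypes, 18.9% to 27.6% of all genes had no overlap between hepatocytes and liver, counting both directions. The share that separated over all genotypes together was not counted. The Cebpb change in double knockout livers was 0.03 ± 0.13 (limma adjusted p = 0.919).

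Prox1 (chr1:190118035-190170827) was 8.39, 8.15 and 8.77 in double knockout hepatocytes, 8.10, 8.62 and 8.97 in NEMO knockouts and 8.14, 8.70 and 8.58 in KEAP1 knockouts, against 8.89, 8.75 and 8.72 in controls. In whole liver it was 8.01, 7.96 and 7.91 in double knockouts, 8.25, 7.59 and 7.66 in NEMO knockouts and 8.30, 8.12 and 8.54 in KEAP1 knockouts, against 8.90, 8.51 and 8.19 in controls. Double knockout livers lay below all control livers, as did 11.6% of all genes, while the highest NEMO knockout liver passed the lowest control. The change was -0.70 ± 0.20 in NEMO knockout livers (limma adjusted p = 0.0939) and -0.57 ± 0.20 in double knockout livers (adjusted p = 0.151). Leaving out the arrays in doubt, these were -0.87 ± 0.19 (adjusted p = 0.0114) and -0.72 ± 0.21 (adjusted p = 0.051). Lymphatic endothelium also expresses Prox1. Of 4 lymphatic markers 3 were called higher in double and in NEMO knockout hepatocytes and 2 in KEAP1 knockouts, while Prox1 itself was not called in any of them. Over all genes 6.73%, 4.61% and 1.45% were called higher in double, NEMO and KEAP1 knockout hepatocytes. The lymphatic marker Pdpn was below 4 in every hepatocyte group. In whole liver, on the arrays not in doubt, 2, 1 and 1 of the 4 lymphatic markers were called higher in double, NEMO and KEAP1 knockouts, with summed levels of 9.08 to 9.27, 9.11 to 9.59 and 9.10 to 9.37, against 8.53 to 8.72 in controls. Over all genes 6.37%, 8.48% and 3.71% were called higher in those liver comparisons. The part of the lymphatic markers in the Prox1 result was not tested.

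The double knockout was then set against each single knockout. Against KEAP1 knockouts, 2 of 8 factors were lower in double knockout hepatocytes, beside 0.590% of all genes, and the same number without the arrays in doubt, beside 0.946%. Cebpa fell by 0.53 ± 0.12 on the log2 scale (limma adjusted p = 0.033) and Onecut1 by 2.01 ± 0.49 (adjusted p = 0.046), and for both the call was kept in 2 of 6 cases when single arrays were left out. The Cebpa call was lost without double knockout 2 (adjusted p = 0.168) or any KEAP1 knockout array (0.0787 to 0.138), and the Onecut1 call without double knockout 2 (0.189), double knockout 3 (0.121), KEAP1 knockout 1 (0.149) or KEAP1 knockout 3 (0.173). Foxa1 differed by -0.78 ± 0.26 (adjusted p = 0.155). Against NEMO knockouts limma called 0 of 8 in hepatocytes, beside 1.16% of all genes called lower with all arrays and 1.42% without the arrays in doubt, and 2 of 8 had an unadjusted p under 0.05, beside 16.2% of all genes. The nearest were Onecut1 at -1.50 ± 0.49 (adjusted p = 0.129) and Foxa3 at -0.51 ± 0.20 (adjusted p = 0.214).

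In whole liver the double knockout differed from the NEMO knockout most in Foxa3 and Onecut1. For both, all double knockout arrays lay below all NEMO knockout arrays, as they did for 9.7% of all genes. With all arrays limma called 0 of 8, beside 0.632% of all genes called lower, and 1 of 8 had an unadjusted p under 0.05, beside 11.9% of all genes. Foxa3 differed by -1.13 ± 0.27 (adjusted p = 0.071) and Onecut1 by -1.36 ± 0.63 (adjusted p = 0.423). Leaving out the arrays in doubt, 1 factor was called lower beside 1.54% of all genes, Foxa3 at -0.99 ± 0.16 (adjusted p = 0.00371), and Onecut1 had an adjusted p of 0.085. Between double and KEAP1 knockout livers limma called 0 of 8 with or without the arrays in doubt, with 0% and 0.0106% of all genes called lower. With all arrays 0 of 8 reached an unadjusted p under 0.05, beside 7.59% of all genes. There the Onecut1 difference was 0.13 ± 0.63, with a 95% confidence interval between -1.24 and 1.50. The test of whether the double knockout departed from the sum of the single knockouts called 0 of 8 factors by limma in hepatocytes and in liver, beside 0.0425% and 0.0106% of all genes, and 0 of 8 had an unadjusted p under 0.05 in both, beside 9.93% and 5.06% of all genes. On the arrays not in doubt it again called 0 of 8 in both tissues, beside 0.117% and 0.345% of all genes, while 0 of 8 in hepatocytes and 3 of 8 in liver had an unadjusted p under 0.05, beside 1628 and 2640 of all 18820 genes. All 8 departures in liver were then above 0, where 46.1% of all genes lay below 0, and all 8 rest on the same arrays. The Onecut1 departure was 1.53 ± 0.54 (limma adjusted p = 0.239), against 0.60 ± 0.89 (adjusted p = 0.968) with all arrays. In hepatocytes the Onecut1 departure was -1.48 ± 0.69 (limma adjusted p = 0.505) with all arrays and -0.63 ± 0.58 (adjusted p = 0.831) without those in doubt.

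**Figure D4:**
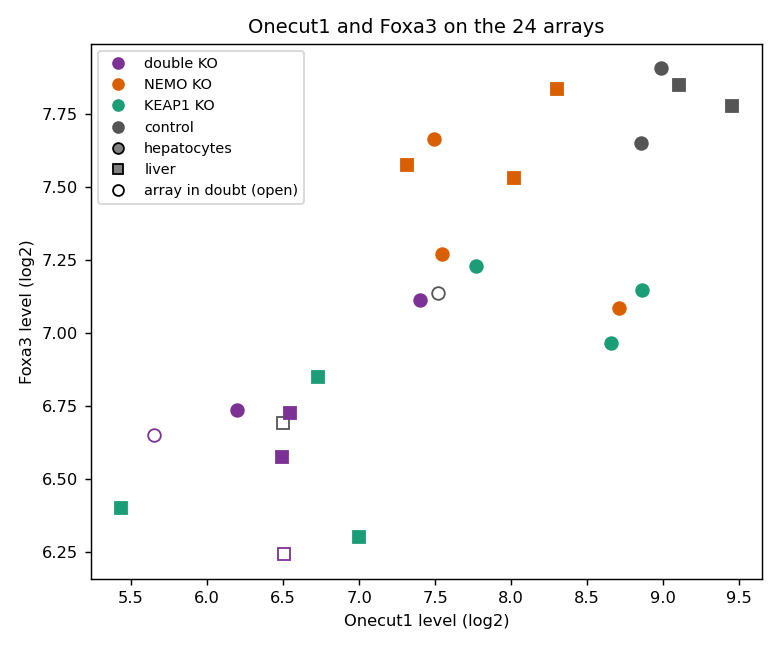
Onecut1 against Foxa3 log2 signal on 24 arrays, with hepatocytes as circles, liver as squares, genotypes by colour and open symbols for the 4 arrays in doubt. Double knockout hepatocytes, at 5.65 to 7.40, sit at the low end of Onecut1. Double knockout livers, at 6.50 to 6.55, and KEAP1 knockout livers, at 5.44 to 7.001, lie there too. Liver control 3, with Onecut1 at 6.50 and Foxa3 at 6.69, lies among the double knockout livers.

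Some factors varied together over the arrays. After each tissue's mean was subtracted, the correlation over 24 arrays was 0.769 between Onecut1 and Foxa3 and 0.747 over the 20 arrays not in doubt. It was 0.701 between Foxa1 and Foxa2, 0.643 between Cebpa and Hnf4a, 0.098 between Onecut1 and Prox1 and -0.311 between Cebpb and Foxa1. The arrays share groups and normalization, so these values describe the pattern only. Among 2240 genes whose group means spanned at least 1, those most like Cebpa were Dgat2 (r = 0.925), an enzyme of triglyceride synthesis, and Scnn1a (0.912), an epithelial sodium channel subunit. Adgrf1, an adhesion receptor, was the nearest to both Onecut1 (0.909) and Foxa3 (0.858), followed by Mcm10 (0.895), a DNA replication factor, for Onecut1 and Tmem19 (0.855) for Foxa3. The nearest to Prox1 were Il15ra (0.836) and Ppara (0.809), the fatty acid receptor. For Hnf4a they were Cyp2d40 (0.716) and Lrrc3 (0.714), for Foxa1 Ces3b (0.773) and Rtp3 (0.722), for Foxa2 Prr16 (0.697) and Cish (0.696), and for Cebpb Slc38a2 (0.661) and Apcs (0.596). Over the 20 arrays not in doubt the same pairs gave 0.598 and 0.581 for Hnf4a and 0.752 and 0.676 for Foxa1. They gave 0.728 and 0.765 for Foxa2, 0.65 and 0.599 for Cebpb, and 0.795 to 0.937 for the other factors.

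Of 27 other measured transcription factors of the hepatocyte network, 5 fell and 0 rose in double knockout hepatocytes, with a median change of -0.21, beside -0.03 over all genes. Over all genes limma called 2.99% lower and 6.73% higher in that comparison, 2.05% and 4.61% in NEMO knockouts and 0.425% and 1.45% in KEAP1 knockouts, and the list counts of these paragraphs stand beside those shares. Mlxipl, the carbohydrate-responsive factor ChREBP, changed by -0.86 ± 0.11 (limma adjusted p = 0.000264). Nr1h4, the bile acid receptor FXR, changed by -0.79 ± 0.15 (adjusted p = 0.004) and Ppara by -0.64 ± 0.19 (adjusted p = 0.0498). Nr2f6 and Rxra, the partner of many nuclear receptors, changed by -0.41 ± 0.09 and -0.34 ± 0.09. In NEMO knockouts 2 of the 27 fell, Mlxipl and Rxra, and in KEAP1 knockouts limma called none. In double knockout hepatocytes without the arrays in doubt, 9 of the 27 were called lower and 1 higher, with Hhex at -1.57 ± 0.29 (adjusted p = 0.00448), beside 2.79% and 6.44% of all genes.

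Genes known to depend on these factors were counted next. Of 20 genes that need HNF4A, 3 fell and 0 rose in double knockout hepatocytes, the gluconeogenic enzyme Fbp1 by 0.48 ± 0.09 on the log2 scale, the bile acid importer Slc10a1 by 0.44 ± 0.11 and the organic anion carrier Slco1b2 by 0.35 ± 0.08. Apoa4, an apolipoprotein on the same list, rose in NEMO knockout hepatocytes by 1.13 ± 0.19 and fell in KEAP1 knockouts by 1.24 ± 0.19. Of 12 metabolic genes on the C/EBP list, which includes Cebpa itself, 3 fell in double knockouts, the others being the liver glycogen synthase Gys2 (-0.66 ± 0.17) and the glucose-6-phosphatase G6pc (-0.45 ± 0.09). Of 15 acute phase genes on the C/EBP list, 2 rose and 1 fell in double knockouts, where Lcn2, an iron-binding secreted protein, changed by 2.50 ± 0.51 and Saa3 by -1.30 ± 0.33. Of 12 FOXA targets 2 fell, the protease Hgfac (-0.89 ± 0.15) and G6pc. Of 20 hepatocyte products 2 fell, Fbp1 and prothrombin (F2, -0.33 ± 0.07). The medians of these 5 lists in double knockouts were -0.15, -0.08, 0.17, -0.03 and -0.06, beside -0.03 over all genes. On the arrays not in doubt the counts lower and higher were 5 and 0, 4 and 0, 1 and 4, 3 and 0, and 4 and 0, in the same order, beside 2.79% lower and 6.44% higher over all genes.

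The 21 measured targets of CAR, whose own gene had no value, rose in part. In double knockout hepatocytes 7 rose and 1 fell, with a median change of 0.40, and 9 rose and 1 fell without the arrays in doubt. Abcc4, an efflux pump that is also an NRF2 target, changed by 4.18 ± 0.33 (limma adjusted p = 7.96e-06), Cyp2a5 by 1.15 ± 0.25 and Cyp2c55 by 0.93 ± 0.17, while Cyp2c29 changed by -0.63 ± 0.17. In KEAP1 knockouts Abcc4 (3.10 ± 0.33) and Cyp2c55 (0.95 ± 0.17) rose, and in NEMO knockouts Cyp2c55 rose (1.38 ± 0.17) and Abcc4 fell by 1.26 ± 0.33. Of 19 genes tied to dedifferentiation and fetal liver, 4 rose in double, 5 in NEMO and 1 in KEAP1 knockout hepatocytes, and none fell; without the arrays in doubt 4, 4 and 1 rose, beside 6.44%, 4.14% and 1.34% of all genes. In double knockouts these were the cytoskeletal gene Vim (2.82 ± 0.20), the annexin Anxa2 (2.70 ± 0.27), the tubulin Tubb6 (1.48 ± 0.23) and the oncofetal Gpc3 (0.73 ± 0.18). Vim and Anxa2 are also expressed by the macrophage, stellate and endothelial cells whose markers moved, and their part was not tested.

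In whole liver with all arrays, limma called no gene of the network and target lists against control in any knockout, other than 3 of 19 dedifferentiation genes that rose in NEMO knockouts, where 1.01% of all genes rose, Ccnd1 (2.98 ± 0.33), Tubb6 (2.24 ± 0.40) and Igf2bp3 (1.30 ± 0.19). Without the arrays in doubt, 3 of 27 network factors were lower and 1 higher in double knockout livers, 5 lower and 1 higher in NEMO knockouts and 1 lower and 1 higher in KEAP1 knockouts. Over all genes 2.84% were lower and 6.37% higher in double, 3.55% and 8.48% in NEMO and 1.55% and 3.71% in KEAP1 knockouts. Nr1h4 was lower in all 3, at -0.78 ± 0.10 in double, -0.37 ± 0.10 in NEMO and -0.44 ± 0.10 in KEAP1 knockouts. Mlxipl was lower in double (-0.83 ± 0.13) and NEMO knockouts (-0.81 ± 0.12). Apoa4, from the list of 20 genes that need HNF4A, was lower in double knockout livers (-2.59 ± 0.50) and KEAP1 knockout livers (-1.82 ± 0.45). Among the 21 CAR targets Abcc4, also an NRF2 target, was higher by 5.42 ± 0.30 in double, 0.94 ± 0.27 in NEMO and 4.94 ± 0.27 in KEAP1 knockouts. Apoa4 and Abcc4 are single genes and do not stand for their lists.

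Plated hepatocytes were set against whole liver of the same genotype, a comparison that joins isolation, culture and the loss of other liver cells. With all arrays, Cebpb was the only factor called higher in hepatocytes. It differed by 0.68 ± 0.13 in controls (limma adjusted p = 0.00228), 0.53 ± 0.13 in NEMO knockouts (adjusted p = 0.0272), 0.52 ± 0.13 in double knockouts (adjusted p = 0.0391) and 0.42 ± 0.13 in KEAP1 knockouts (adjusted p = 0.0916). Leaving out single arrays kept the control call in 6 of 6 cases, but the NEMO and double knockout calls in 1 of 6. In NEMO knockouts the call was kept without liver array 1 and had adjusted p of 0.0502 to 0.122 for the others, and in double knockouts it was likewise kept without liver array 1, with 0.0511 to 0.233 for the others. So 1 of 8 factors was called higher in double knockouts, 1 in NEMO knockouts, 0 in KEAP1 knockouts and 1 in controls, beside 0.452%, 1.09%, 0.473% and 1.29% of all genes. In KEAP1 knockouts 4 of 8 had an unadjusted p under 0.05, beside 15.7% of all genes. Without the arrays in doubt the counts were 0, 2, 3 and 1, beside 0.175%, 2.05%, 1.20% and 0.733% of all genes. The 3 in KEAP1 knockouts were Onecut1 (2.04, adjusted p = 0.00376), Cebpa (0.56, adjusted p = 0.00866) and Foxa3 (0.60, adjusted p = 0.0263). Their differences were the same with all arrays, since no KEAP1 array was in doubt, and what changed was the spread pooled over the other groups. The second in NEMO knockouts was Prox1 (0.73 ± 0.20, adjusted p = 0.0323). In control hepatocytes all 8 macrophage, 8 of 10 stellate cell and all 8 endothelial markers were lower than in control liver, and C/EBPδ (Cebpd) was higher by 1.02 ± 0.22. Over all genes 3.84% were called lower in that comparison with all arrays and 2.33% without those in doubt.

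**Figure D5:**
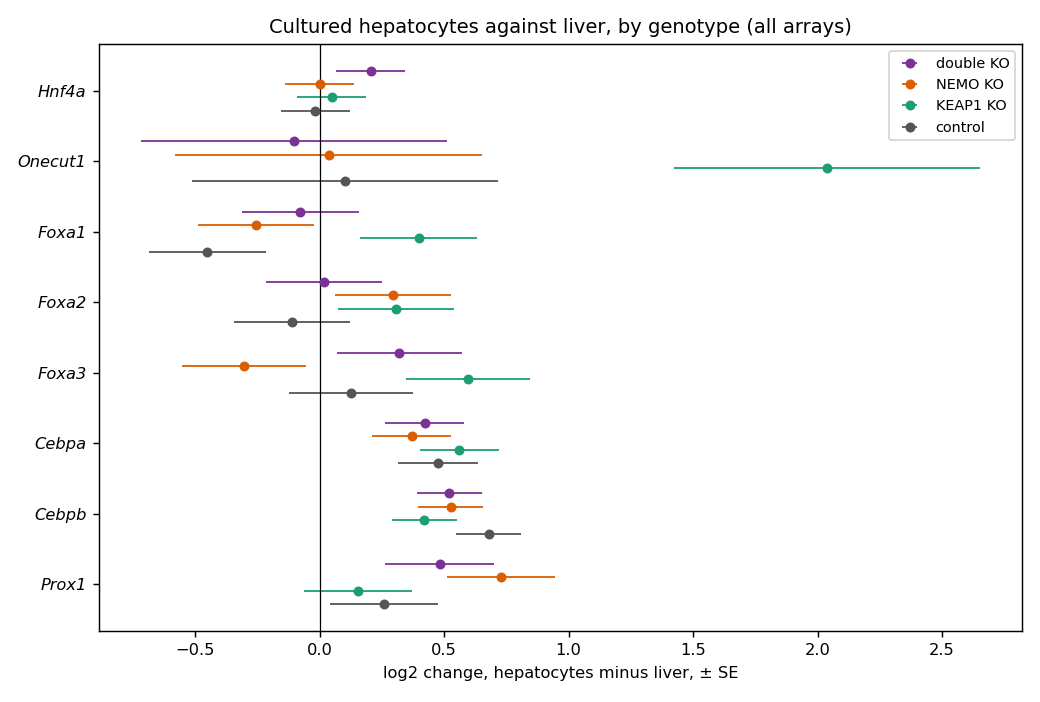
Difference in log2 signal between plated hepatocytes and whole liver of the same genotype for each factor with all arrays (point) and its SE (line). Cebpb is above 0 in all 4 genotypes, at 0.42 to 0.68, as are Cebpa, at 0.37 to 0.56, and Prox1, at 0.15 to 0.73. Onecut1 stands out in KEAP1 knockouts at 2.04.

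Whether a knockout changed a factor differently in liver and in hepatocytes was tested in one fit of 24 arrays. Limma called 0 of 8 factors for the double, NEMO and KEAP1 knockouts, beside 0.0691%, 0.0691% and 0% of all genes, and again 0 of 8 without the arrays in doubt, beside 0.00531%, 0.0638% and 0.0106%. With all arrays 0, 0 and 2 of 8 factors had an unadjusted p under 0.05, beside 7.59%, 9.46% and 5.68% of all genes. The KEAP1 change of Onecut1 in liver minus that in hepatocytes was -1.94 ± 0.87 (limma adjusted p = 0.862), and that of Foxa1 was -0.85 ± 0.33 (adjusted p = 0.81). Without the arrays in doubt the Onecut1 difference was -2.40 ± 0.64 (adjusted p = 0.279).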

How the data were processed

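RNA of 24 samples, labelled from total RNA with a whole-transcript assay, was read on one-colour Affymetrix arrays, per the labels' protocols. The authors deposited log2 values after RMA (background correction, quantile normalization and probe summary), per the submitters' processing notes (RMA version not given). The 35556 probe sets were named from the platform annotation (21218 with 1 symbol, 1881 with several, 12457 with none listed), and the brightest probe set stood for each of 18820 genes. Array medians were 4.035 to 4.2305. No probe set was left out for dim signal.

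Samples were grouped by their labels. Differences were fitted with limma 3.58.1 (lmFit, eBayes with an intensity trend, two-sided) in R 4.3.3 on the 12 arrays of a tissue, or on all 24 for hepatocytes against liver, and p-values were adjusted over all 18820 genes in each of 19 comparisons. The fits were tested on simulated data. The labels do not say whether replicates are separate animals, and p-values measure the spread between these samples.

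Replicate numbers were tested as pairs by correlating deviations from group means. In liver double knockout and control the 3 correlations were 0.115, 0.136 and 0.23, all over 0.1, so the block is reported there; no other genotype pair compared within a tissue met this. The members, gene lists and the 4 arrays in doubt were chosen with earlier results of these data known. The genes named are all 9 listed factors, at most 5 called genes of largest change a list, label checks, and for each factor the 2 genes most like it. Alternatives were the replicate block, no trend, array weights, renormalization, averaged probe sets, a filter on dim genes, 2 groups alone, each array left out, and, added after seeing the data, leaving out the 4 arrays in doubt.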

Additional observations from a re-analysis of the deposited data

How the results depend on the processing

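The counts of factors called depended most on the arrays in doubt, and for knockout livers against control on liver control 3. Without them the count was 4 in NEMO knockout livers, 3 in KEAP1 knockout livers and 4 in double knockout livers against control, and 1 for double against NEMO knockout livers, where all arrays gave 0 each. Over all genes, 2265, 990 and 1732 were called without these arrays in NEMO, KEAP1 and double knockout livers, against 251, 0 and 1 with all, and 651 against 197 for double against NEMO livers and 10 against 0 for double against KEAP1 livers. For hepatocytes against liver the factor counts became 3 in KEAP1, 2 in NEMO and 0 in double knockouts, with 1217, 1480, 149 and 576 genes called in KEAP1, NEMO and double knockouts and controls, against 469, 710, 422 and 966. The replicate block gave 2 factors in NEMO knockout livers, 2 in double knockout livers and 1 for double against KEAP1 hepatocytes, with 837, 799 and 517 genes called in all against 251, 1 and 518; only the double knockout livers met the pairing check, and in the rest the numbers are shared only by name. Array weights gave 1 in NEMO and 4 in double knockout livers, 1 for double against NEMO livers, and 3 and 2 for hepatocytes against liver in KEAP1 and NEMO knockouts, with 1010, 771, 725, 1312 and 1374 genes called in all against 251, 1, 197, 469 and 710. Fitting 2 groups alone gave 2 for double against NEMO livers, with 333 genes called in all against 197. Without the trend the count was 0 for double against KEAP1 hepatocytes and 0 for hepatocytes against liver in double knockouts. There 440 and 389 genes were called in all, against 518 and 422. A second quantile normalization gave 1 for double against KEAP1 hepatocytes, with 445 genes called in all against 518. The dim filter gave 1 for hepatocytes against liver in KEAP1 knockouts, with 501 genes called in all against 469. Leaving out 1 array at a time gave 0 to 3 in NEMO, 0 to 3 in KEAP1 and 0 to 6 in double knockout livers against control. Each of these liver counts above 0 came without liver control 3, where 1409, 497 and 2207 genes were called in all. Leaving out 1 array gave 1 to 4 in double knockout hepatocytes against control and 0 to 2 for double against KEAP1 hepatocytes. There 1042 to 1946 and 157 to 571 genes were called in all, against 1830 and 518. For hepatocytes against liver it gave 1 to 2, 0 to 2 and 0 to 1 in controls, NEMO and double knockouts. In these, 638 to 964, 208 to 559 and 132 to 669 genes were called in all, against 966, 710 and 422. The Onecut1 change in NEMO knockout livers was 0.0785 without liver control 2 and -1.40 without liver control 3, against -0.47 with all arrays. The cause was not tested. Each factor had 1 probe set, so averaging probe sets could not alter its values and says nothing of their stability. Signal on the array limits what a fold means for dim genes, and 3 arrays a group limit all calls.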
